A study of Homo sapiens with 4 samples.

Results

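Baseline expression was compared between the untreated vector and MYC-inducible lines of SK-MEL-28, an established human melanoma cell line that carries an activating BRAF mutation. Both lines were made by lentiviral transduction and geneticin selection, 1 with the empty pTRIPZ vector and 1 with a MYC gene under a Tet-inducible promoter, and both were kept in medium with G418. The 2 untreated libraries, 1 per line, were the members chosen from the 4 libraries of the series, and the other 2 came from the same lines after 54 h of doxycycline (Dox). Of 25268 gene symbols, the 11147 with a mean of at least 1 FPKM (fragments per kilobase of transcript, scaled to the depth of the library) over the 4 libraries were compared. The difference of a gene is log2(FPKM + 0.1) in the MYC-inducible line minus that in the vector line, and a gene was called at 1.5-fold. With 1 library a side there is no replicate error, so every value is a description of these libraries. Whether either line is 1 clone is not given in the sources used here, so effects of the line, the culture and the library cannot be told apart.

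MYC is a basic helix-loop-helix leucine zipper transcription factor that pairs with MAX and binds E-box DNA, whose preferred letters are CACGTG. It drives genes of ribosome biogenesis, nucleotide synthesis and growth, and it holds down cell cycle inhibitors such as CDKN1A. In a Tet-inducible vector the transactivator needs Dox to occupy the promoter, and transcription without Dox is commonly called leak. A leaky transgene would raise the level of its own mRNA in untreated cells, which is why the untreated lines are worth a description of their own.

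The summed FPKM of the 4 libraries lay between 692146 and 715495. An approximate depth of 34900000 to 41900000 fragments per library was estimated from the low values of 89 genes. Counting errors below rest on this depth and on annotated transcript lengths, and they cover fragment counting only. The melanocyte label held in both untreated lines: PMEL was at 6176 FPKM in the vector line and 6178 FPKM in the MYC-inducible line, and SOX10 was at 196.9 and 191.1 FPKM. The summed FPKM of 3 endothelial markers was 0.0981 and 0.106, and that of 4 erythroid markers was 1.04 and 1.41. The 5 immune markers summed to 246.7 and 271.9 FPKM, although 3 of them were at 0 in both lines. The 6 fibroblast markers summed to 29.8 and 31.6 FPKM, and the 6 epithelial markers to 33.4 and 37.8 FPKM.

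The untreated lines were close to each other across the transcriptome. Of the 11147 genes, 98 (0.879%) differed at least 1.5-fold, 66 of them higher in the MYC-inducible line (0.592%) and 32 lower (0.287%). A share of 76.6% of genes lay within 1.1-fold, and 59.5% were higher in the MYC-inducible line by any amount, against 49.2% between the lines with Dox. The median difference was 0.02 on the log2 scale, which turned to −0.01 with scaling by the median ratio, and the robust SD over genes (the scaled median absolute deviation) was 0.106. Between the same lines with Dox, 724 genes (6.5%) were higher and 961 (8.62%) lower at the same threshold, and the robust SD was 0.367.

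The difference between the untreated lines and its spread depended on the level of expression. The median difference went from 0.05 at 1 to 2 FPKM to −0.04 among the genes with at least 1000 FPKM. Among the 1338 genes whose mean was 1 to 2 FPKM the robust SD was 0.179 and 51 genes (3.81%) passed 1.5-fold. Among the 1773 genes with 30 to 100 FPKM it was 0.0817 and 4 (0.226%) passed. None of the 116 genes with at least 1000 FPKM passed, and their robust SD was 0.0542. Of the 98 genes, 72 had a mean under 5 FPKM, so most calls sit where fewer fragments stand behind a value.

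**Figure D1:**
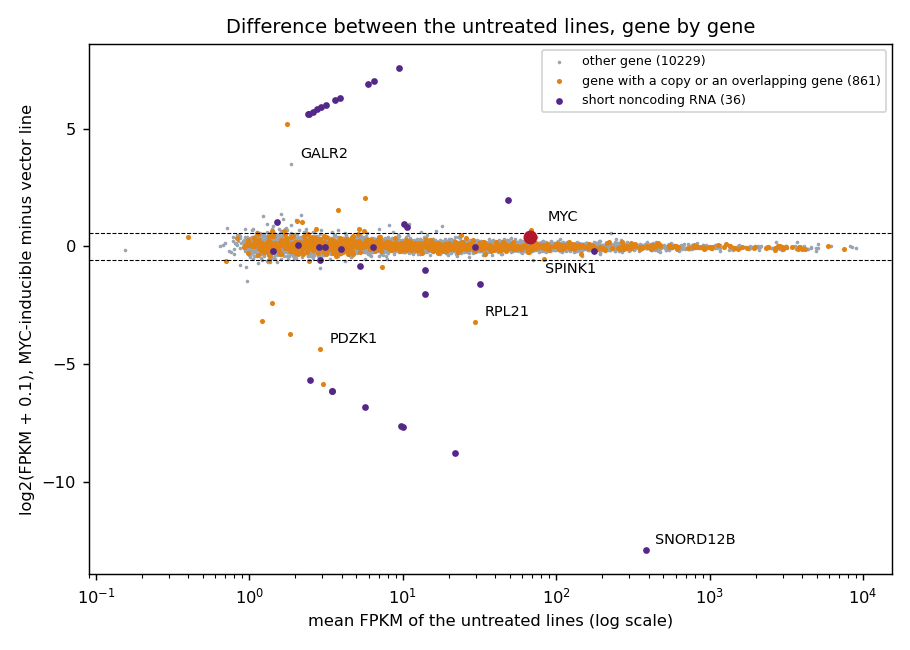
Difference between the untreated lines, as log2(FPKM + 0.1) in the MYC-inducible line minus the vector line, against the mean FPKM of the untreated libraries on a log axis, with 1 point for each of 11126 genes (21 genes listed at 0 in both are not drawn). Dashed lines mark 1.5-fold. MYC at 0.39 stays inside them, and most of the farthest points are short noncoding RNAs or genes with a copy or an overlapping gene.

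MYC mRNA was moderately higher in the untreated MYC-inducible line and below the 1.5-fold threshold. MYC was at 58.3 FPKM in the untreated vector line, 54.8 FPKM in the vector line with Dox, 76.5 FPKM in the untreated MYC-inducible line and 87.1 FPKM in the MYC-inducible line with Dox. Both libraries of the MYC-inducible line were thus higher than both of the vector line, as they were for 2521 of all genes tested (22.6%), and the untreated library of the MYC-inducible line stood nearer to its partner with Dox than to either vector library. The difference without Dox was 0.39 on the log2 scale (1.31-fold, counting error 0.0283), and that with Dox was 0.67 (1.59-fold, counting error 0.0295). In FPKM, the MYC-inducible line was 18.2 above the vector line without Dox and 32.3 above it with Dox, and the first is 56.3% of the second. With Dox, MYC changed by −0.09 in the vector line and by 0.19 in the MYC-inducible line. These values do not separate the introduced MYC from the cell's own. The share is therefore not a measure of leak, which was not tested.

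The MYC difference was large among well expressed genes but not the largest. MYC ranked 172 of 11147 from the highest. Among the 1773 genes at 30 to 100 FPKM, 4 were at least as high as MYC, itself included, and 8 lay at least as far from 0 in either direction. The value is summed over the gene symbol, so fragments of the introduced MYC and of the cell's own MYC, on chromosome 8 from 128747680 to 128755197 (GRCh37, plus strand, GENCODE 44), cannot be told apart. Genes that neighbour MYC were measured beside it: of 7 tested, 6 were higher, none past 1.5-fold, and their median was 0.06. Over all genes 59.5% were higher and 0.879% passed 1.5-fold. PVT1, the long noncoding RNA just downstream of MYC, was at 3.14 FPKM in the vector line and 3.29 FPKM in the MYC-inducible line, a difference of 0.06.

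The partners and competitors of MYC were at similar levels in both untreated lines. MAX, the obligate partner, was at 31.8 FPKM in the vector line and 32.2 FPKM in the MYC-inducible line. MXI1 and MNT, which pair with MAX and repress, were at 20.4 and 20.4 FPKM and at 5.30 and 5.08 FPKM. MXD4 was at 4.86 and 4.55 FPKM, MXD3 at 41.0 and 39.0 FPKM, and MLX at 20.3 and 20.03 FPKM. MXD1 differed most of these, at 1.09 and 1.28 FPKM (difference 0.22, counting error 0.309). Of 13 listed network genes 9 were tested, and none passed 1.5-fold, where 0.879% of all genes did. MYCN was listed at 0 in both untreated libraries, and MYCL was at 0.280 and 0.160 FPKM.

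The activated MYC targets did not stand apart from other genes in the untreated lines. Of 39 tested targets, 21 were higher in the MYC-inducible line and 0 passed 1.5-fold in either direction, where 0.879% of all genes did. Their differences ran from −0.18 to 0.15 with a median of 0.01. Relative to the median of all genes this was −0.01, with the deposited FPKM and under each of 3 other scalings. Between the lines with Dox, a pair that shares no library with the untreated one, the same 39 targets had a median of 0.68 and 25 passed 1.5-fold as higher, where 6.5% of all genes did.

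The values of single targets show the same. NCL, which encodes nucleolin, was at 436.9 and 468.4 FPKM in the untreated vector and MYC-inducible lines, and at 446.6 and 836.9 FPKM in the same lines with Dox. ODC1, the first enzyme of polyamine synthesis, was at 32.8 and 36.3 FPKM without Dox and at 42.2 and 96.1 FPKM with it. NOP16, a nucleolar protein, was at 68.2 and 61.4 FPKM without Dox and at 68.0 and 136.8 FPKM with it. PRMT5, an arginine methyltransferase, was at 35.2 and 34.1 FPKM without Dox and at 36.7 and 57.2 FPKM with it. For these 4 genes the untreated MYC-inducible library lay near the vector libraries, and only the MYC-inducible library with Dox was set apart.

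The E-box is shown for targets that carry it, beside their baseline levels. The 6 letters CACGTG, which read the same on both strands, were searched in the RefSeq promoter windows (GRCh38.p14), 250 bases before to 50 after the start of a gene. Stretches of 54 bases from 4 of the 33 targets with a window are printed 5′ to 3′ on the strand of the gene, with every occurrence of the motif in capitals.
LDHA: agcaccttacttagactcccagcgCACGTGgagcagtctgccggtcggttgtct
HSPD1: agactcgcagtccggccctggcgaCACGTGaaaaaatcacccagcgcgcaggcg
SRM: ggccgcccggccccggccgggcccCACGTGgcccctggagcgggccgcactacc
CDK4: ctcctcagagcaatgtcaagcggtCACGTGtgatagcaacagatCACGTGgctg
The stretch of LDHA (lactate dehydrogenase A) is chr11:18394354-18394407 on the plus strand. Those of HSPD1 (a mitochondrial chaperonin), SRM (spermidine synthase) and CDK4 (a cyclin-dependent kinase) are chr2:197500333-197500386, chr1:11060188-11060241 and chr12:57752497-57752550, all on the minus strand.

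Each of these 4 genes was nearly level between the untreated lines. LDHA was at 1430 FPKM in the vector line and 1404 FPKM in the MYC-inducible line, a difference of −0.03. HSPD1 was at 528.0 and 585.6 FPKM (0.15), SRM at 343.4 and 324.2 FPKM (−0.08) and CDK4 at 148.0 and 150.3 FPKM (0.02). A gene was counted as holding CACGTG if any of its windows did. Over the list, 17 of 33 targets with a window (51.5%) held it, against 1109 of 8381 tested genes with a window (13.2%). Counted by single windows, which is a different measure, 2548 of 35116 (7.26%) held it. The targets with the motif had a median difference of 0.02 without Dox, and those without it had one of 0.00. Of the 66 genes called higher in the untreated MYC-inducible line, 32 had a window and 1 of these (3.12%) held the motif. Of the 32 called lower, 10 had a window and 1 held it.

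The repressed MYC targets lay slightly higher in the untreated MYC-inducible line. Over all genes 59.5% were higher and 0.879% passed 1.5-fold. Of the 14 repressed targets tested, 12 were higher and none passed 1.5-fold. Their median was 0.06, or 0.04 relative to the median of all genes. CDKN1A, which encodes the cell cycle inhibitor p21, was at 12.5 and 13.7 FPKM in the untreated lines (difference 0.14, counting error 0.0739) and at 13.5 and 3.03 FPKM with Dox. TXNIP, an arrestin family protein that limits glucose uptake, was at 24.6 and 26.0 FPKM without Dox and at 27.9 and 13.2 FPKM with it. With Dox the list had a median of −0.56 and 6 of its 14 members passed 1.5-fold as lower, where 8.62% of all genes did.

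None of the tested kinases of SR proteins, CLK kinases among them, or of the SR proteins themselves passed 1.5-fold, where 0.879% of all genes did. At so low a share, a count of 0 says little for short lists. CLK kinases phosphorylate SR proteins, which guide the choice of splice sites. CLK1 was at 19.8 FPKM in the untreated vector line and 20.4 FPKM in the untreated MYC-inducible line, and CLK2 at 7.28 and 7.77 FPKM. CLK3 was at 19.1 and 21.9 FPKM (difference 0.20, counting error 0.0768) and CLK4 at 2.75 and 2.35 FPKM (−0.22, counting error 0.155). Where 59.5% of all genes were higher in the MYC-inducible line, 7 of the 9 kinases tested were. Their median difference was 0.10, and the largest difference was 0.28 for SRPK2, at 8.63 and 10.5 FPKM. SRSF1 was at 40.1 and 41.6 FPKM, and of the 14 SR proteins none passed 1.5-fold, with a median of 0.04.

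The most abundant mRNAs of the untreated lines were those of ribosomal proteins, glycolysis and pigment cell biology. RPL41 led with 9262 FPKM in the vector line and 8720 FPKM in the MYC-inducible line, followed by RPL37A, RPLP1 and RPL13AP5. PMEL, which forms the fibrils of melanosomes, was the fifth, and GAPDH (5199 and 4974 FPKM), LGALS1 (5064 and 4843 FPKM) and CD63 (4681 and 4454 FPKM) were also among the leading 15. The 10 highest symbols held 9.46% (vector line) and 9.31% (MYC-inducible line) of the summed FPKM. In all, 11102 and 11165 symbols reached 1 FPKM, and 1013 and 1017 reached 100 FPKM. RPL13AP5 is a processed pseudogene of RPL13A, so its value of 7788 and 7258 FPKM can hold fragments of the parent gene.

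The melanocyte lineage genes differed by little, with TYRP1 as the farthest. Of 16 tested, 10 were higher in the MYC-inducible line and 0 passed 1.5-fold, with a median of 0.03 that turned to −0.01 with scaling by the median ratio. Over all genes 59.5% were higher and 0.879% passed. TYRP1, an enzyme of melanin synthesis, was at 20.2 FPKM in the untreated vector line and 27.9 FPKM in the untreated MYC-inducible line, a difference of 0.47 (counting error 0.0749). With Dox it was at 15.8 and 14.2 FPKM, so the untreated MYC-inducible library was the highest of the 4. MLANA, a melanosome antigen, was at 1252 and 1086 FPKM (−0.20), and DCT, another enzyme of the pathway, at 75.6 and 87.5 FPKM (0.21). MITF, the lineage's master transcription factor, was at 82.6 and 90.0 FPKM (0.12).

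Cholesterol synthesis and the TGF-beta and ID genes had the largest shifts among lists with more than 5 tested members. Relative to the median of all genes they stood at 0.14 and −0.14. Of the 19 cholesterol synthesis genes, 17 were higher in the untreated MYC-inducible line, with a median of 0.17, and 0 passed 1.5-fold. Over all genes 59.5% were higher and 0.879% passed. HMGCS1, the first committed enzyme of the mevalonate pathway, was at 6.74 and 8.69 FPKM (0.36, counting error 0.139). SCD, which desaturates fatty acids, was at 95.3 and 117.0 FPKM (0.30, counting error 0.0137), and INSIG1, which retains the SREBP complex in the endoplasmic reticulum, at 9.18 and 11.1 FPKM (0.27). SREBF1, which encodes a transcription factor of lipid synthesis and is not on the list, was among the 12 highest genes above the 10 FPKM minimum, at 9.06 and 12.7 FPKM (0.48, counting error 0.119). Under each of the 3 other scalings the list stood at 0.14 relative to the median of all genes. With Dox its median was 0.23, and 2 of the 19 genes passed 1.5-fold as higher, where 6.5% of all genes did.

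The remaining shifts were also small beside 1.5-fold. Of all genes tested, 59.5% were higher in the MYC-inducible line. Of 7 tested TGF-beta and ID genes, 1 was higher in that line and the median was −0.12. The ID genes, targets of BMP signalling that block basic helix-loop-helix factors, were lower: ID3 was at 317.5 and 278.4 FPKM (−0.19), ID2 at 35.5 and 31.5 FPKM (−0.18) and ID1 at 63.2 and 58.5 FPKM (−0.11). Interferon response genes had a median of 0.11, with 10 of 14 higher, led by OAS2 at 7.37 and 9.59 FPKM (0.38). Of 15 antigen presentation genes 4 were higher, with a median of −0.05. Mitosis genes (18 of 19 higher, median 0.07), S phase genes (15 of 18 higher, median 0.07) and MAPK feedback genes (12 of 13 higher, median 0.06) lay just above the median of all genes. Of all members of the fixed lists, only COL6A1, a collagen chain (1.82 and 2.86 FPKM), the histone gene HIST1H2AE (0.672 and 1.77 FPKM) and LYZ, which encodes lysozyme (1.09 and 1.75 FPKM), passed 1.5-fold. With a pseudocount of 1, COL6A1 (0.46) and LYZ (0.40) no longer did.

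The 98 genes that did pass fell into 3 classes, which were set after their values had been seen. Short noncoding RNAs (small nucleolar, small nuclear, Cajal body, micro- and related RNAs, by symbol) gave 27 calls from 57 tested (47.4%). Of these 27, 19 were listed at 0 in an untreated library and above 0 in the other. Another 21 of the 57 were listed at 0 in both untreated libraries and could not be called. The share of 47.4% thus depends largely on values listed at 0 and on the minimum, which was taken over all libraries. Genes with a near-identical copy or an overlapping gene gave 21 calls from 861 (2.44%). The other 10229 genes gave 50 calls (0.489%), 40 higher and 10 lower in the MYC-inducible line, and 43 of these 50 had a mean under 5 FPKM.

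Short noncoding RNAs were present in some libraries and listed at 0 in others. Of the 57 tested, 40 were listed at 0 in at least 1 of the untreated libraries, and 21 in both. SNORD12B, a box C/D small nucleolar RNA, was at 764.8 FPKM in the untreated vector line and listed at 0 in the other 3 libraries. SNORA10, a box H/ACA RNA, was listed at 0 in the untreated vector line and was at 7.41 FPKM in that line with Dox, 19.0 FPKM in the untreated MYC-inducible line and 17.9 FPKM in that line with Dox. RNU6ATAC, a small nuclear RNA of the minor spliceosome, was listed at 0 in the untreated vector line and was at 13.7 FPKM in that line with Dox and at 11.9 and 44.3 FPKM in the MYC-inducible line. The vector library without Dox gave 6.90 FPKM for each of SNORA41, SNORA51 and SNORA18. SNAR-E and SNAR-B2 shared the value 19.5 FPKM in the same library and 22.3 FPKM in the vector line with Dox, whereas in the untreated MYC-inducible line SNAR-E was listed at 0 and SNAR-B2 was at 77.7 FPKM.

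These RNAs are very short, and 3 of the named ones are shown in full so that their size can be seen. They were read from the GRCh37 genome's GENCODE 44 transcripts and are printed 5′ to 3′ in lower case.
SNORD12B: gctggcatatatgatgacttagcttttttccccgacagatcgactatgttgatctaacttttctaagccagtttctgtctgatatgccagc
SNORA10: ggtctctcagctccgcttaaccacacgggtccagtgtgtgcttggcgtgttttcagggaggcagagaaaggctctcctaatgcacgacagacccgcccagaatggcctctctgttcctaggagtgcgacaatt
RNU6ATAC: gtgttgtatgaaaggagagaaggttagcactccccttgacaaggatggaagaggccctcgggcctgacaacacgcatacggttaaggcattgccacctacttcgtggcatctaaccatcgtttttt
SNORD12B is 91 bases at chr20:47896856-47896946 on the plus strand. SNORA10 is 133 bases at chr16:2012335-2012467 and RNU6ATAC is 126 bases at chr9:137029561-137029686, both on the minus strand. FPKM divides by length, so at these lengths few fragments can stand behind a large value, and no counting error is given for them.

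Some genes with a copy showed opposite differences that largely cancelled within the pair. EIF3C, a translation initiation factor subunit, was at 52.1 FPKM in the untreated vector line and 84.1 FPKM in the untreated MYC-inducible line, and its copy EIF3CL was at 99.1 and 68.0 FPKM. Their sum was 151.2 and 152.1 FPKM. GSTT2, a glutathione S-transferase, was at 0.000678 and 3.55 FPKM and GSTT2B at 9.55 and 5.15 FPKM, with sums of 9.55 and 8.70 FPKM. RPL21 was at 53.5 and 5.64 FPKM beside RPL21P28 at 2006 and 1918 FPKM, so both were lower in the MYC-inducible line. Of the 21 called genes of this class, 14 no longer passed 1.5-fold when summed with their partners. For some of the 14, such as RPL21, the partner held most of the sum, so the gene's own change could hardly move it. For those genes the count does not show a shift within the pair. Reads of such pairs can be split differently from library to library, so the single values are uncertain.

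**Figure D2:**
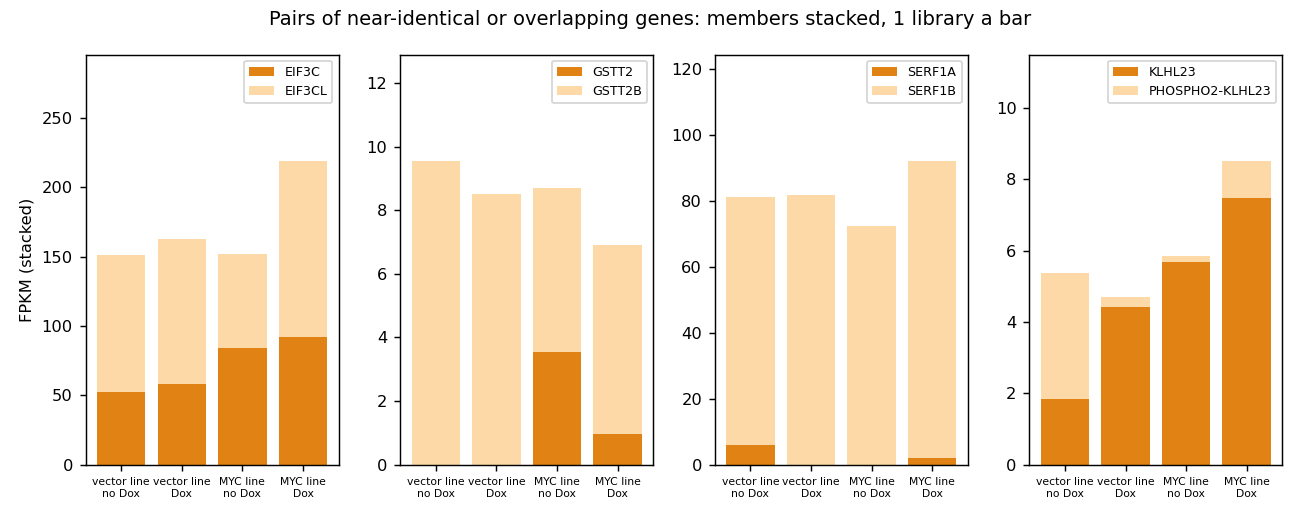
FPKM of 4 pairs of near-identical or overlapping genes, stacked, in each of the 4 libraries (1 bar per library). EIF3C and EIF3CL shift against each other while their sum is 151.2 FPKM in the untreated vector line and 152.1 FPKM in the untreated MYC-inducible line.

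The other 7 still passed when summed, and these were PDZK1, its partner PDZK1P2, VCX, VCX3A, VCX3B, NUDT4P2 and SAPCD1. They are not separate cases, since PDZK1 and PDZK1P2 have the same sum, as do VCX3A and VCX3B. With Dox, only the sum of PDZK1 and PDZK1P2 passed 1.5-fold (−5.20). The sums of VCX (0.21), VCX3A and VCX3B (0.18), NUDT4P2 (0.23) and SAPCD1 (−0.36) did not. VCX3A, of a testis-expressed family on the X chromosome, was at 4.32 and 6.89 FPKM in the untreated lines, and its copy VCX3B at 3.87 and 6.60 FPKM. PDZK1, a scaffold protein for membrane transporters, was at 5.59 FPKM in the untreated vector line and 14.7 FPKM in that line with Dox, and at 0.180 and 0.218 FPKM in the MYC-inducible line. Its pseudogene PDZK1P2 was at 2.25 and 5.41 FPKM in the vector line against 0.160 and 0.232 FPKM in the other. The 2 libraries of each line did not overlap with those of the other, and the difference of PDZK1 was −4.35 without Dox (counting error 0.533) and −5.54 with Dox. With a pseudocount of 1 the untreated difference was −2.48.

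The libraries with Dox gave a separate look at the 98 genes, although MYC induction is part of that pair. Of the 98, 31 (31.6%) differed at least 1.5-fold in the same direction with Dox, which is 1.84% of the 1685 genes called with Dox. Among the 66 higher genes 21 (31.8%) did, where 6.5% of all genes were higher with Dox. Among the 32 lower genes 10 (31.2%) did, where 8.62% of all genes were lower with Dox. Of the 31, 9 were short noncoding RNAs and 6 had a copy or an overlapping gene. Another 13 of the 98 differed at least 1.5-fold in the opposite direction, and 54 did not pass. Of the 50 genes outside the short RNA and copy classes, 16 passed in the same direction, 5 in the opposite one, and 29 did not.

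GALR2 showed the largest difference of those 50. GALR2, a receptor for the neuropeptide galanin, was at 0.220 FPKM in the untreated vector line and 0.0894 FPKM in that line with Dox, and at 3.54 and 1.97 FPKM in the MYC-inducible line. Its difference was 3.51 without Dox (counting error 0.433) and 3.45 with Dox. Both libraries of the MYC-inducible line were above both of the vector line at a low level, with about 203.1 fragments in the untreated MYC-inducible library and 11.8 in the untreated vector library. With a pseudocount of 1 the untreated difference was 1.89.

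Better expressed genes that separated the lines in both pairs were SPATS1, NEFL and SPINK1. SPATS1, a gene named for its expression in spermatogenesis, was at 12.7 and 11.0 FPKM in the vector line without and with Dox and at 23.3 and 19.9 FPKM in the MYC-inducible line (differences 0.87 and 0.85, counting errors 0.0712 and 0.0803). NEFL, the light chain of neurofilaments, was at 5.69 and 6.13 FPKM in the vector line against 10.7 and 27.3 FPKM in the other (0.90 and 2.14). In the other direction, SPINK1, a secreted trypsin inhibitor, was at 84.0 and 104.6 FPKM in the vector line against 56.5 and 44.2 FPKM in the other. Its differences were −0.57 and −1.24, so the untreated one was just short of 1.5-fold. For all 3 genes, which were described for this reason, the libraries of the lines did not overlap. That ordering is common, since 22.6% of all genes tested were higher and 15.8% lower in both libraries of the MYC-inducible line.

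Several low genes followed the same pattern. SOX2, a transcription factor of stem and neural progenitor cells, was at 0.505 and 0.563 FPKM in the vector line against 0.939 and 2.07 FPKM in the other. DPYSL3, which takes part in axon guidance, was at 2.21 and 1.92 FPKM against 3.63 and 6.59 FPKM, and UBAP1L at 5.26 and 4.51 FPKM against 8.72 and 11.9 FPKM. LDHC, the testis form of lactate dehydrogenase, was lower in the MYC-inducible line, at 1.26 and 1.53 FPKM against 0.643 and 0.813 FPKM. With a pseudocount of 1, the untreated differences of SOX2 (0.37), DPYSL3 (0.53) and LDHC (−0.46) no longer passed 1.5-fold.

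Other genes did not pass 1.5-fold in the same direction in the pair with Dox. VGF, a secreted neuropeptide precursor, was at 182.6 FPKM in the untreated vector line and 271.2 FPKM in the untreated MYC-inducible line (0.57, counting error 0.0138), and with Dox at 231.9 and 105.7 FPKM (−1.13). MYL10, a myosin light chain, was at 7.49 and 14.4 FPKM without Dox and at 8.11 and 6.86 FPKM with it. CNTN1, a neural adhesion protein, was at 0.856 and 2.35 FPKM and then at 0.621 and 0.923 FPKM, so that its libraries did not overlap between the lines and its difference with Dox was 0.50. BAAT, which conjugates bile acids, was at 10.3 and 15.9 FPKM without Dox and at 8.01 and 7.83 FPKM with it, and PRSS33, a serine protease, at 12.8 and 20.1 FPKM and then at 15.2 and 13.8 FPKM. For these 5 genes the untreated MYC-inducible library was the highest of the 4. With a pseudocount of 1, the untreated difference of BAAT was 0.58, just under 1.5-fold.

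**Figure D3:**
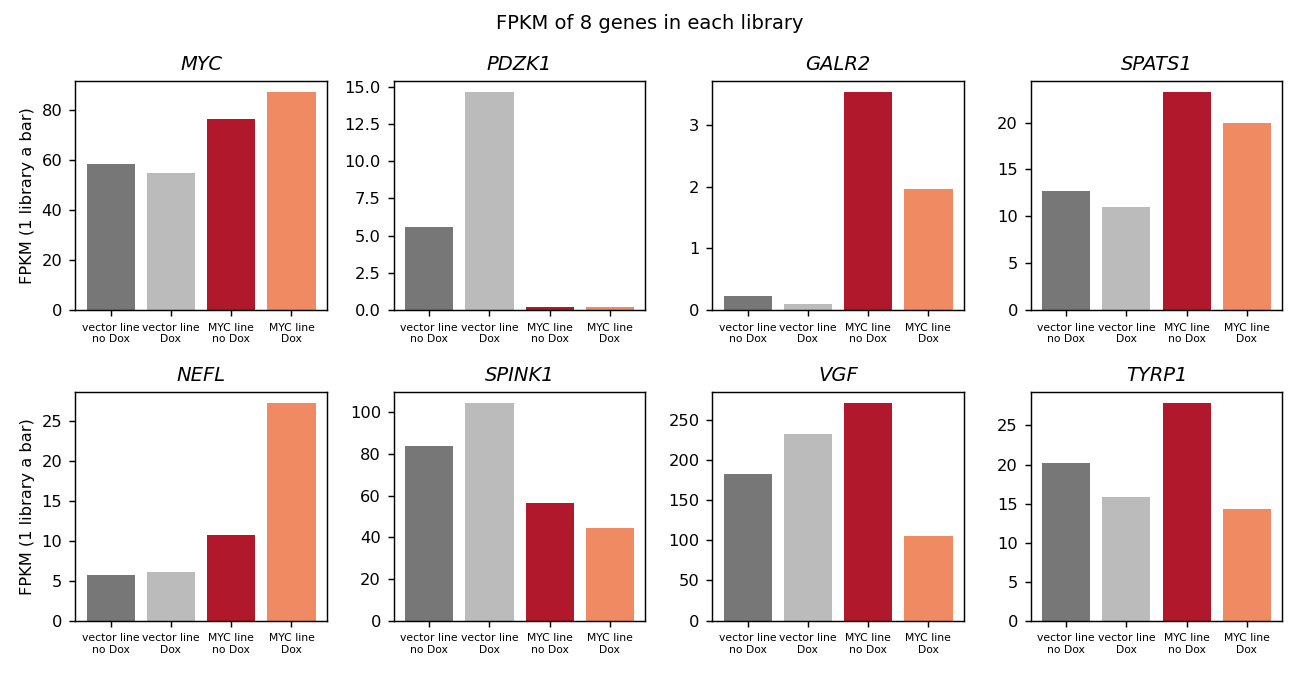
FPKM of 8 genes in each of the 4 libraries (1 bar per library, axes start at 0). PDZK1, GALR2, SPATS1, NEFL and SPINK1 separate the lines with and without Dox, MYC is 58.3 and 76.5 FPKM in the untreated lines, and VGF and TYRP1 are highest in the untreated MYC-inducible library.

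The small differences were not spread evenly over the chromosomes. Positions on GRCh37 (GENCODE 44) were found for 10150 of the 11147 genes, and medians were taken in 242 windows of 40 neighbouring genes. The window medians ran from −0.07 to 0.16 with an SD of 0.0425, and 12 windows reached 0.1. Of these, 4 lay on chromosome 6 and 6 on chromosome 15. On chromosome 6 between 76 and 160 Mb, limits that were set after the windows had been seen, 189 genes had a median of 0.14 and 166 of them (87.8%) were higher in the MYC-inducible line, where 59.5% of all genes were, and the other 345 genes of the chromosome had a median of 0.04. The 329 genes of chromosome 15 had a median of 0.11 with 281 (85.4%) higher, and those of chromosome 21 had a median of 0.10 with 82 (81.2%) higher.

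The pair with Dox gave shifts in the same direction at these places taken as wholes, but not in every window. The 189 genes of chromosome 6 had a median of 0.13 with Dox and 65.1% of them were higher, and the genes of chromosome 15 had a median of 0.07 with 57.8% higher, where the median of all genes was −0.01 and 49.2% were higher. Chromosome 21 had a median of 0.05 with 52.5% higher. Of the 12 windows at or above 0.1 without Dox, 11 lay above the median of all windows with Dox. That median was −0.0046, so windows near 0 count among the 11, such as that of chromosome 15 from 73.3 Mb at −0.0020. The window of chromosome 15 from 89.2 to 100.3 Mb went from 0.11 without Dox to −0.08 with Dox, with 14 of its 40 genes higher. Chromosome 22 went the other way, with a median of −0.04 over 262 genes without Dox and −0.13 with Dox. A median of 0.14 corresponds to a small ratio for each gene, and DNA copy number was not measured in these files. Without these 2 stretches, 10629 genes had a median of 0.02, and 63 were called higher and 32 lower.

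Transcript length moved weakly with the difference. With genes put into 5 equal bins by the length of the longest annotated transcript, the median difference was −0.01 in the shortest genes, up to 2101 bases, and 0.05 in the longest, from 5991 bases on. The part of length in the list medians was not tested.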

How the data were processed

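RNA-Seq of 4 libraries, 1 per condition, was available as a table that the authors deposited with FPKM values per gene symbol. The submitters' processing notes name TopHat2 2.0.14, Cufflinks and the build hg19 (GRCh37), without their settings or annotation. The table had 27032 rows. Rows of the 609 repeated symbols were added up and the row that names no gene was dropped, leaving 25268 symbols. FPKM values are not counts, so no count model was fitted, and no test was made because each condition has 1 library. Relative depth was read from the steps of low values, and the counting error of a difference follows from depth and the median annotated transcript length (300 bases or more).

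The gene lists, the classes and the comparisons were chosen with earlier results of these data known. Named genes are the MYC network, the 15 highest and 15 lowest differences, the 12 highest and 12 lowest with a mean of at least 10 FPKM, the 15 most abundant genes, list members past 1.5-fold, genes the study discusses and leading members of each list. Named after their values had been seen were SOX2, DPYSL3, UBAP1L, LDHC, MYL10, CNTN1, PVT1, NCL, ODC1, HSPD1, SRM, CDK4, CDKN1A, TYRP1, DCT, MITF, HMGCS1, INSIG1, OAS2, SNORA18, partners of copied genes and, in the closing section, ADM, SLC7A11 and the genes with opposite differences. A gene had a copy or an overlapping gene where at least 20% of its 50-base words occurred in another gene, or by symbol (read-through genes and pseudogenes). Positions and lengths came from GENCODE 44 and promoter windows from RefSeq. The calculations were tested on simulated data. Alternatives were pseudocounts of 1 and 0.01, other scalings and filters, and a 2-fold threshold, and their effects are given in the closing section. The software was Python (3.11.15) with pandas (2.3.3), Matplotlib (3.10.9) and NumPy (2.4.6).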

Additional observations from a re-analysis of the deposited data

Results flagged for a closer look

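A set of 10 genes differed at least 1.5-fold in opposite directions between the lines without and with Dox, with values above 0 in all 4 libraries; each condition has 1 library, so the difference between the pairs was not tested. CD52, a surface glycoprotein of lymphocytes, had a difference of 0.94 without Dox and −1.41 with Dox. SCRG1 had 0.74 and −0.91, LOC100506860 had 0.73 and −0.90, DEFB131 had −1.47 and 0.66, and ZNF296 had −0.79 and 0.64. These 5 were low, and CD52 was at 0.866 and 1.76 FPKM in the untreated lines. The other 5 have a copy or an overlapping gene, and 1 of them is not described here. SERF1A had −5.86 and 4.35, PHOSPHO2-KLHL23 had −3.73 and 1.64, EEF1E1-BLOC1S5 had 1.07 and −3.00, and SRGAP2C had 1.03 and −2.59. SERF1A was at only 0.0053 FPKM in the untreated MYC-inducible line and 0.00629 FPKM in the vector line with Dox. EEF1E1-BLOC1S5 and SRGAP2C were at 4.92e-05 and 0.000173 FPKM in the MYC-inducible line with Dox. The size of these differences thus depends on the 0.1 FPKM added. Summed with their partners, the 4 named differed by −0.17, 0.09, −0.11 and 0.31 without Dox. With Dox the sums differed by 0.17, 0.54, 0.30 and −0.44, all below 1.5-fold. The partners of SERF1A and EEF1E1-BLOC1S5 held most of the sum, so those 2 sums could hardly move with the gene itself.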

How the results depend on the processing

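With 66 genes called higher and 32 lower, adding 1 instead of 0.1 FPKM gave 34 and 21, a minimum of 5 FPKM gave 16 and 10, a 2-fold threshold gave 24 and 18, and all symbols without a minimum gave 501 and 347. Without short noncoding RNAs 20 genes were lower. The 31 genes kept with Dox became 19, 13 and 12 under the first 3 of these settings. The libraries with Dox gave 724 and 961 genes, and a MYC difference of 0.67. The histone median of 0.05 turned to 0.16 where the minimum was set on the untreated libraries alone, −0.15 at 5 FPKM, −0.063 without a minimum and 0.16 as a mean. The immune marker median of 0.39, over 2 genes, became 0.27 when adding 1, 0.14 at 5 FPKM and 0.00 without a minimum. The erythroid marker median of 0.37 became 0.16 when adding 1 and 0.18 without a minimum. It rests on 2 near-identical genes, HBA1 and HBA2, which met the minimum only through the MYC-inducible library with Dox. The other 412 of 436 values of counts, spread, list medians and MYC stayed within 1.5 times (counts and spread) or 0.106 (differences), including those without genes with a copy or without the stretches of chromosomes 6 and 15, both chosen after seeing the data. Of 320 values of single genes under other pseudocounts and scalings, 23 moved farther, and none of those called at 1.5-fold changed sign. The MYC difference was 0.36 to 0.41 under the pseudocounts and scalings. Counting limits genes at 1 to 2 FPKM most. No paired analysis was possible because there are no replicates.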

Other observations

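Ribosomal protein genes, a group chosen after the values had been seen, lay slightly lower in the untreated MYC-inducible line. Of 80 tested, 9 were higher in the untreated MYC-inducible line, where 59.5% of all genes were. The median of the 80 was −0.04, with RPL21 as the only member past 1.5-fold. The 116 genes with at least 1000 FPKM also had a median of −0.04, but the groups overlap. The ribosomal protein genes summed to 196739.7 FPKM in the untreated vector line, and a median of abundant genes without them was not computed. With Dox the 80 ribosomal protein genes had a median of 0.21. Among p53 targets 11 of 13 were higher without Dox with a median of 0.04, and GDF15, a stress cytokine, was at 451.7 and 458.2 FPKM in the untreated vector and MYC-inducible lines. Among glycolysis and hypoxia genes 11 of 22 were higher, and ADM, which encodes adrenomedullin, was the farthest at 22.2 and 17.1 FPKM (−0.37, counting error 0.0672). Of 15 ATF4 response genes 11 were higher; ASNS, asparagine synthetase, stood lowest, at 8.88 and 6.72 FPKM (−0.40), and SLC7A11 highest, at 2.08 and 2.63 FPKM (0.33).

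Haemoglobin genes were near the detection limit in the untreated lines. HBA1 was at 0.711 FPKM in the vector line and 0.942 FPKM in the MYC-inducible line (counting error of the difference 0.487), and at 0.368 and 5.78 FPKM with Dox. HBA1 and HBA2 are near-identical copies, and HBA2 was at 0.332 and 0.464 FPKM without Dox and at 0.343 and 2.99 FPKM with it.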
